A study of Homo sapiens with 6 samples.

Results

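The switch that carries a cell into mitosis was described through 10 genes in MV4;11 cells, a line from human acute myeloid leukemia that carries FLT3-ITD and MLL-AF4 by its labels. The genes are the A and B cyclins CCNA2, CCNB1 and CCNB2, their kinase CDK1, the phosphatases CDC25A, CDC25B and CDC25C, the inhibitory kinases WEE1 and PKMYT1, and the kinase PLK1. They were taken by symbol. All 10 are among the 21857 genes of the deposited tables, and all 10 passed the filter on low counts that kept 13531 genes. RNA was sequenced from 3 control samples and from 3 samples given FKA at 10 µg/ml for 48 h (FKA is flavokawain A, a chalcone of the kava plant). Both groups are the same line with the same genotype, and by the labels each of 3 batches holds 1 control and 1 FKA library. The labels do not say whether the libraries of a group came from separate cultures, so the p-values measure the spread between these libraries, which may be technical.

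As background, CDK1 is active only when bound to an A or B cyclin. WEE1 and PKMYT1 place inhibitory phosphates on the bound kinase, and the CDC25 enzymes remove them. Active CDK1 in turn stimulates CDC25 and restrains WEE1, and PLK1 helps in both steps, which makes entry into mitosis abrupt. Most of these transcripts rise in each cycle toward G2 and mitosis and are low in resting cells. The values below are messenger RNA levels, not protein or kinase activity.

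The promoters are shown first as background, and their part in the changes described below was not tested. RefSeq promoter windows on build GRCh38.p14, from 250 bases before to 50 after a listed start, were found for 8 of the 10 genes, with 15 starts in all. The search covered both strands for the cell cycle homology region (CHR, letters TTTGAA, which recruits the MuvB complex) and for the CCAAT box (letters CCAAT, bound by NF-Y). CCAAT was in at least 1 window of 8 of the 8 genes and in 11 of the 15 windows, against 34.6% of all 35116 windows. TTTGAA was in windows of 4 of the 8 genes, and in 6 of the 15 windows, against 15.2% of all windows. No other spelling of the CHR was searched, so a window without TTTGAA is not shown to lack a CHR. These counts are descriptions, several windows of one gene overlap, and a match is not a measured binding site. The 4 stretches of 30 bases with TTTGAA in capitals show the element near a start of CCNB2 (chr15:59105105-59105134, plus strand), PLK1 (chr16:23678848-23678877, plus strand), CDK1 (its second listed start, chr10:60778453-60778482, plus strand) and CDC25C (the last of its listed starts, chr5:138331817-138331846, minus strand).
CCNB2: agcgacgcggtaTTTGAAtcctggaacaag
PLK1: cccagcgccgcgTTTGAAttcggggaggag
CDK1: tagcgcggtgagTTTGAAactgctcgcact
CDC25C: gctggcggaaggTTTGAAtggtcaacgcct

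Counted from the listed start, with -1 as the base just before it, TTTGAA began at base -29 in both CCNB2 and PLK1, at -13 in CDK1 and at -30 in CDC25C. In all 4 windows a CCAAT box lay upstream of it. The next stretches, taken outside every exon of the gene in GENCODE V29, show the CCAAT boxes in capitals (ATTGG is the same box on the other strand). Capitals also mark a TTTGAA further upstream in CDK1 and TTGGCGC, 1 of 4 searched spellings of the site of E2F factors, which drive S phase genes (another was TTCCCGC, a further one TTCGCGC and the last one was TTGCCGC). At least 1 of the 4 spellings was in 7 of the 15 windows, from 5 of the 8 genes, against 13.0% of all windows, and the spelling shown was in 3.04% of all windows. The stretches are CDK1 (first listed start, chr10:60778161-60778330, plus strand), CDC25A (chr3:48188418-48188537, minus strand), CCNB2 (chr15:59105016-59105077, plus strand) and CCNA2 (chr4:121823934-121823993, minus strand). In the capitals of CDC25A the E2F letters occur on both strands and overlap.
CDK1: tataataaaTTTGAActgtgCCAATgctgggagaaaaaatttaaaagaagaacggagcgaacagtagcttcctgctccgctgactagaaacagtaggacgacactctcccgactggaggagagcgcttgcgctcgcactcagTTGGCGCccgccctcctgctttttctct
CDC25A: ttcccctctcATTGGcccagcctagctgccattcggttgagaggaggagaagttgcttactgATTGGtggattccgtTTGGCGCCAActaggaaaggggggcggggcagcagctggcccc
CCNB2: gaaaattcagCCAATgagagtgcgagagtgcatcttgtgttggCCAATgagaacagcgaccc
CCNA2: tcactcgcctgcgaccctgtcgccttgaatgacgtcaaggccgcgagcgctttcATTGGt

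Total counts ran from 29971171 to 36362421 per library. Levels of single genes are given as CPM, library-scaled counts after TMM normalization, with SD over 3 libraries. Of the 13531 tested genes, 59.8% passed edgeR's quasi-likelihood test at an adjusted p of 0.05, 3959 higher and 4131 lower with FKA. With library totals as the only scaling, the median over all tested genes shifted by 0.16 on the log2 scale and the calls were 4993 higher and 3282 lower. Of 9 markers of the acute myeloid leukemia line, none was at 0 in any library, and 3 were called higher and 2 lower. Their summed level was 1023 to 1322 CPM in controls and 1286 to 1456 CPM with FKA. Single markers went opposite ways. MPO was at 34.7, 30.1 and 68.8 CPM in the controls and at 0.777, 0.313 and 2.10 CPM with FKA. ITGAM was at 10.9, 20.3 and 17.6 CPM in the controls and at 41.3, 55.0 and 42.5 CPM with FKA. Of 7 mesenchymal markers in the table, 5 were tested and none was called. Their summed level was 0.744 to 10.7 CPM in controls, 1.12 CPM in FKA replicate 1, 52.6 CPM in FKA replicate 2 and 48.8 CPM in FKA replicate 3. In a fit with FKA replicate 1 as the lone FKA library, the estimates of the 10 genes ran from -6.33 (PKMYT1) to -1.44 (CDC25B) on the log2 scale. In that fit the controls alone supply the spread, and the lone library is assumed to vary as they do. Epithelial markers summed to 19.2 to 21.8 CPM in controls and 12.9 to 18.8 CPM with FKA. T and NK cell markers summed to 21.5 to 24.3 CPM in controls and 9.35 to 9.70 CPM with FKA, nearly all of it NKG7, while CD3D had 1 count in each control and 0 in each FKA library. B cell markers stayed between 0.155 and 0.547 CPM in all libraries. The part of these markers in the falls described next was not tested.

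All 10 genes of the mitotic switch fell with FKA, each by at least 2-fold in the edgeR estimate. They were called lower by edgeR in 10 of 10 cases, where 30.5% of all tested genes were called lower, and at least 2-fold lower in 10 of 10, where the share over all tested genes was 13.7% (11.9% were at least 2-fold higher). The log2 fold changes ran from -5.69 for PKMYT1 to -1.34 for CDC25B, with a median of -3.66 beside 0.01 over all tested genes. In each gene the highest FKA library lay below the lowest control, a pattern found in 33.6% of tested genes. Together the 10 transcripts summed to 281, 614 and 656 CPM in the controls, in replicate order, and to 55.9, 70.3 and 53.9 CPM after FKA. In bulk RNA, fewer cells in G2 and mitosis and less transcript in each such cell cannot be told apart.

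**Figure D1:**
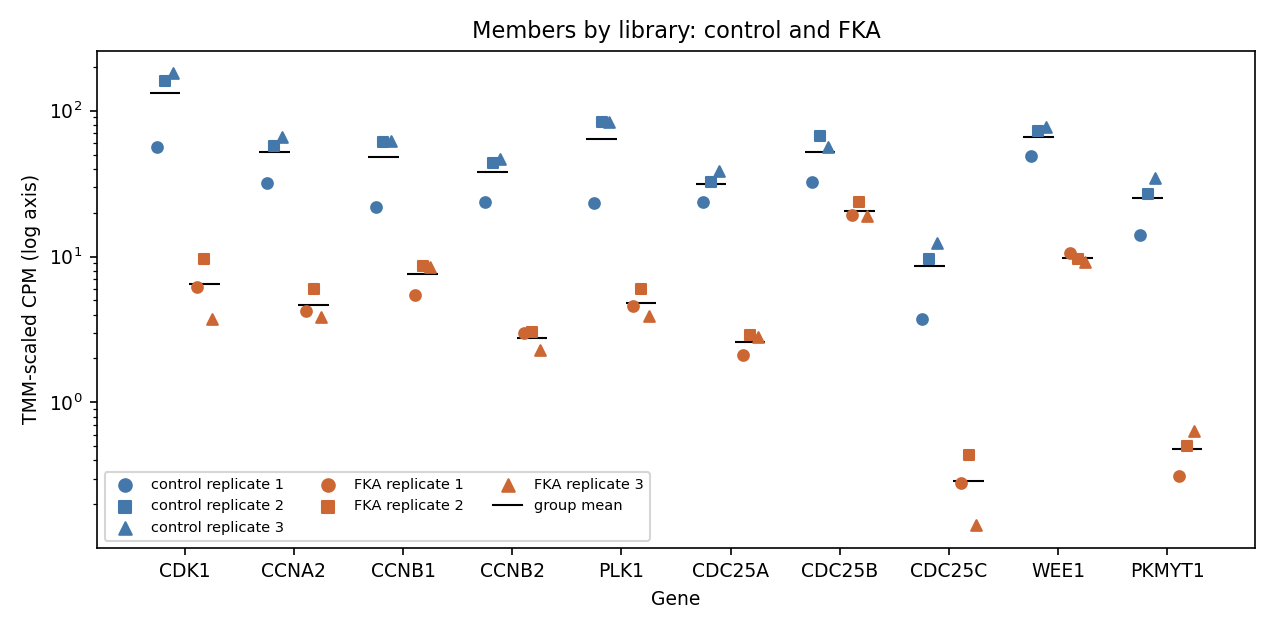
TMM-scaled CPM (log axis) of the 10 genes in each of the 6 libraries, with symbols for replicates and bars for group means. The FKA libraries lie below the controls in every gene, the gap is smallest for CDC25B (lowest control 32.3, highest FKA 23.6 CPM), and control replicate 1 is the lowest control in every gene.

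CDK1, the kinase at the centre of the switch, had the highest control level per length of the 10. It stood at 56.6, 159 and 180 CPM in the controls, again in replicate order, and at 6.15, 9.66 and 3.74 CPM after FKA. The highest FKA library was thus well under the lowest control, although the libraries within each group differed by more than 2-fold. The mean fell from 132 ± 66.1 to 6.52 ± 2.98 CPM, a log2 fold change of -4.34 (SE 0.479, edgeR adjusted p = 9.66e-05). Batches 1, 2 and 3 taken singly gave log2 differences of -3.20, -4.04 and -5.59. Of the 13531 tested genes, 135 had a more negative fold change.

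The 3 cyclins all fell, with smaller estimates than CDK1. Cyclin A2 (CCNA2), which serves CDK2 in S phase and CDK1 in G2, was at 32.0, 57.3 and 65.7 CPM in the controls and at 4.22, 5.97 and 3.86 CPM with FKA. Cyclin B1 (CCNB1), the main partner of CDK1 at entry into mitosis, was at 22.0, 60.7 and 62.0 CPM in the controls and at 5.47, 8.66 and 8.49 CPM with FKA. For both, the controls split into a low replicate 1 and 2 similar higher libraries. Among the FKA libraries the highest was 1.55 times the lowest for CCNA2 and 1.58 times for CCNB1, where replicate 1 was again the lowest. Cyclin B2 (CCNB2), a B cyclin associated with the Golgi, was at 23.8, 43.9 and 46.4 CPM in the controls and at 3.01, 3.03 and 2.27 CPM with FKA. The log2 fold changes were -3.46 for CCNA2 (SE 0.287, edgeR adjusted p = 2.27e-05), -2.68 for CCNB1 (SE 0.375, edgeR adjusted p = 0.000341) and -3.78 for CCNB2 (SE 0.274, edgeR adjusted p = 1.18e-05). CCNB1 kept 15.6% of its mean control level and CCNB2 7.29%.

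PLK1, the Polo kinase that promotes CDC25 activity and WEE1 breakdown, was at 23.4, 83.8 and 83.2 CPM in the controls and at 4.60, 5.97 and 3.88 CPM with FKA. Of the 10 genes it showed the lowest control replicate 1 relative to the other controls. Its log2 fold change was -3.72 (SE 0.457, edgeR adjusted p = 0.000167), and batches 1, 2 and 3 gave -2.35, -3.81 and -4.42.

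**Figure D2:**
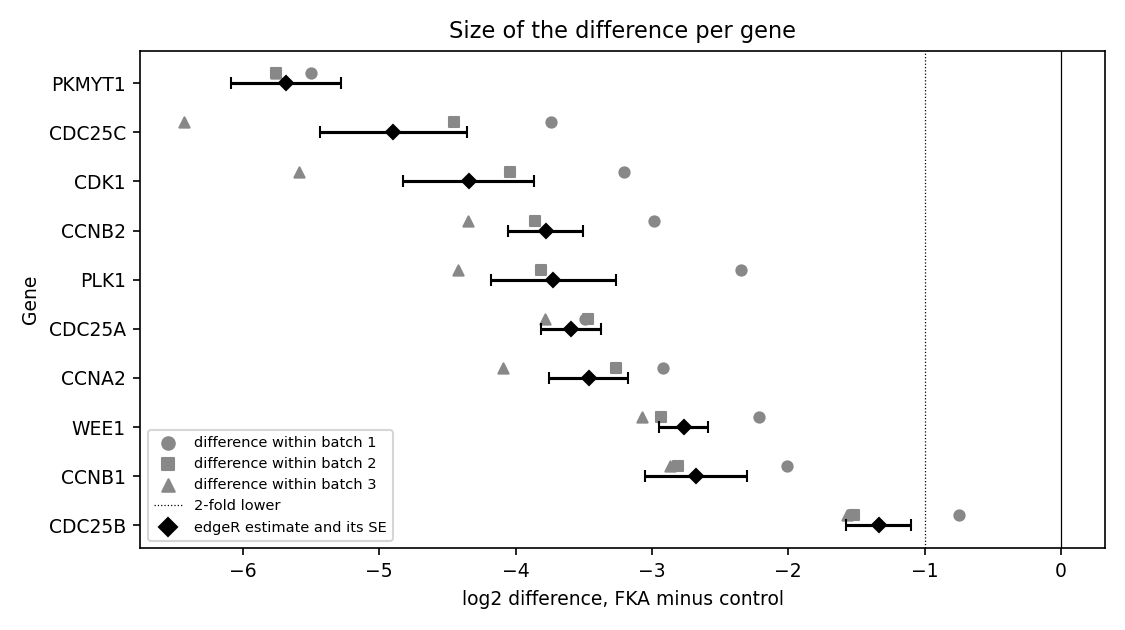
The log2 difference between FKA and control for each gene, as the edgeR estimate with its SE (diamonds) and within each batch (grey symbols), with a dotted line at 2-fold. All within-batch differences are below 0, from -6.43 (CDC25C, batch 3) to -0.75 (CDC25B, batch 1), and batch 1 has the smallest fall in 9 of the 10 genes.

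The 3 CDC25 phosphatases fell to different degrees. CDC25A, which acts at entry into S phase as well as mitosis, was at 23.7, 32.2 and 38.8 CPM in the controls and at 2.11, 2.91 and 2.82 CPM with FKA (log2 fold change -3.59, SE 0.222, edgeR adjusted p = 6.69e-06). CDC25B, thought to start CDK1 activation at the centrosome, was at 32.3, 67.4 and 56.0 CPM in the controls and at 19.2, 23.6 and 18.9 CPM with FKA. Its FKA libraries still held 39.6% of the mean control level, the most of the 10 genes. The log2 fold change of CDC25B was -1.34 (SE 0.239, edgeR adjusted p = 0.00131), and within batch 1 it was -0.75, short of 2-fold.

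CDC25C, which amplifies CDK1 activation at mitotic onset, was the least abundant of the 10. It had 116, 342 and 417 counts in the controls and only 9, 14 and 5 counts after FKA. The mean was 8.56 ± 4.42 CPM in controls and 0.287 ± 0.147 CPM with FKA (log2 fold change -4.90, SE 0.541, edgeR adjusted p = 9.75e-05). At so few FKA counts the size of this fall is imprecise, and within batches it ranged from -6.43 to -3.74. On the log2(FPKM + 1) scale, which shrinks changes of low genes, it was -1.81.

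With the smallest fall, CDC25B made up most of the CDC25 transcripts after FKA. By FPKM (the authors' counts scaled by gene length and library total), CDC25B was 53.8%, 60.5% and 50.8% of the summed CDC25 level in the controls and 88.9%, 87.5% and 86.8% after FKA. The groups did not overlap, and the mean was 32.7 percentage points higher with FKA (exact two-sided permutation test, p = 0.1, adjusted p = 0.1 over the 4 ratios tested). With 3 libraries against 3, a p of 0.1 is the smallest this test can give.

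Both brakes of CDK1 fell too, and by unequal amounts. WEE1, the nuclear inhibitory kinase, was at 48.9, 73.1 and 77.4 CPM in the controls and at 10.5, 9.56 and 9.18 CPM with FKA. Its FKA libraries were the closest to each other of the 10 genes, with the highest 1.15 times the lowest. The log2 fold change was -2.77 (SE 0.179, edgeR adjusted p = 7.78e-06).

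PKMYT1, the membrane-bound relative of WEE1, had the largest fall of the 10. It was at 14.1, 27.0 and 34.3 CPM in the controls and at 0.311, 0.500 and 0.633 CPM with FKA, the latter from 10, 16 and 22 counts. The lowest control was 22.2 times the highest FKA library. The log2 fold change was -5.69 (SE 0.404, edgeR adjusted p = 1.07e-05), and the batches gave -5.50, -5.75 and -5.76. On the log2(FPKM + 1) scale it was -3.03. Of all tested genes, 41 had a more negative fold change. PKMYT1 held 32.5%, 38.2% and 42.6% of the summed WEE1 and PKMYT1 FPKM in the controls and 4.71%, 8.06% and 10.4% after FKA, a mean difference of -30.1 percentage points (exact permutation p = 0.1, adjusted p = 0.1).

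The balance between these transcripts was compared within each library, where library scaling cancels. The ratio of inhibitory kinases (WEE1 and PKMYT1) to CDC25 phosphatases by FPKM was 1.03, 0.903 and 1.04 in the controls and 0.435, 0.329 and 0.400 with FKA. Each FKA library lay below each control, with a mean log2 difference of -1.36 (exact permutation p = 0.1, adjusted p = 0.1). After FKA, CDC25B alone made up 86.8% to 88.9% of the summed phosphatases. The log2 fold change of WEE1 (-2.77) was smaller in size than those of CDC25A (-3.59) and CDC25C (-4.90), while that of PKMYT1 (-5.69) was larger. By mean FPKM, WEE1 went from 14.7 in controls to 2.41 with FKA and PKMYT1 from 9.34 to 0.199. CDC25A went from 7.79 to 0.718 and CDC25C from 3.17 to 0.118. The lower ratio with FKA is that of the sum with CDC25B and need not hold without it. The ratio without CDC25B was not tested. The ratio of the 3 cyclins to CDK1 was 2.31, 1.72 and 1.62 in the controls and 3.46, 2.99 and 6.48 with FKA. It was higher in each FKA library than in any control, by 1.13 on the log2 scale (exact permutation p = 0.1, adjusted p = 0.1), and FKA replicate 3, with the lowest CDK1 level, stood far above the other FKA libraries. Without that library the log2 difference was 0.79.

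**Figure D3:**
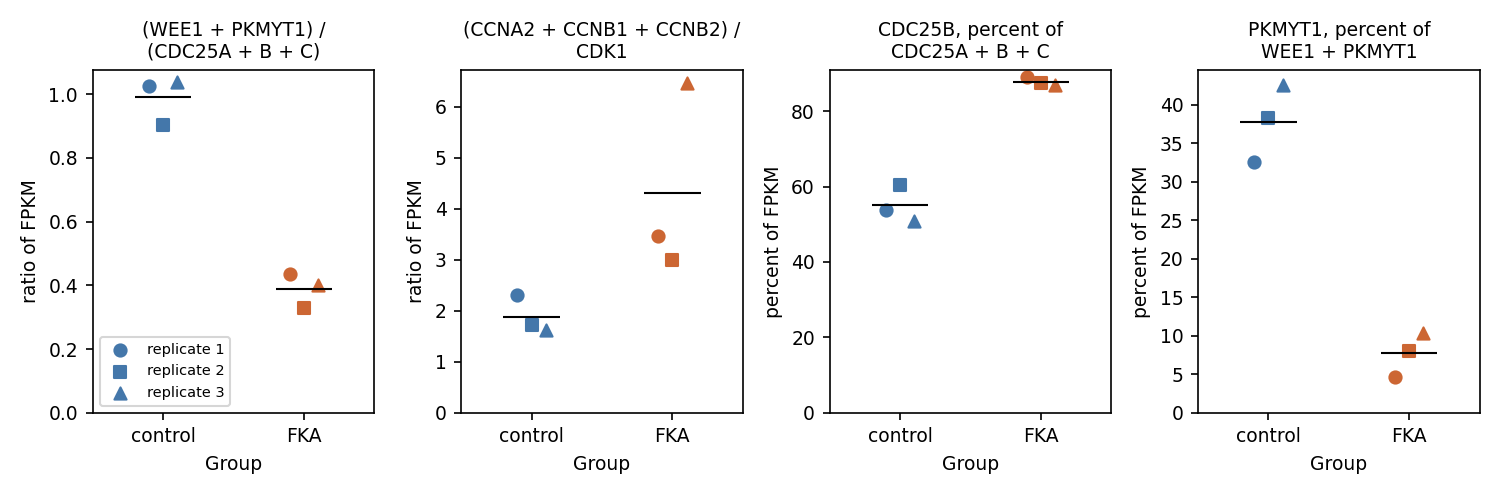
Ratios and shares of FPKM in each library (y axes from 0), with bars for group means of 3 libraries. The inhibitory kinases fall relative to the summed phosphatases (0.990 to 0.388), of which CDC25B is by far the largest part after FKA. The ratio without CDC25B is not shown. The cyclins are higher relative to CDK1 (1.88 to 4.31), CDC25B makes up more of its family and PKMYT1 less of the kinase pair.

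The order of the 10 genes by level per length differed between the groups. In controls CDK1 led with 36.9 ± 18.8 FPKM, followed by PLK1 (28.1 ± 15.7), CCNB2 (24.3 ± 8.29), CCNB1 (22.7 ± 11.0), CCNA2 (17.9 ± 6.25), WEE1 (14.7 ± 3.66), CDC25B (13.6 ± 5.08), PKMYT1 (9.34 ± 3.85), CDC25A (7.79 ± 1.92) and CDC25C (3.17 ± 1.64). Each gene overlapped the next in that order, except that CDC25A and CDC25C were separate. With FKA, CDC25B led with 5.97 ± 0.816 FPKM and did not overlap CCNB1 (3.93 ± 0.944), which did not overlap WEE1 (2.41 ± 0.174). PLK1 (2.36 ± 0.543), CDK1 (2.03 ± 0.944), CCNB2 (1.97 ± 0.321) and CCNA2 (1.80 ± 0.453) followed and each overlapped its neighbour. CDC25A (0.718 ± 0.122) lay apart from the genes above and below it, and PKMYT1 (0.199 ± 0.0664) overlapped CDC25C (0.118 ± 0.0616). CDC25B thus moved from rank 7 to rank 1, and CDK1 from rank 1 to rank 5.

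**Figure D4:**
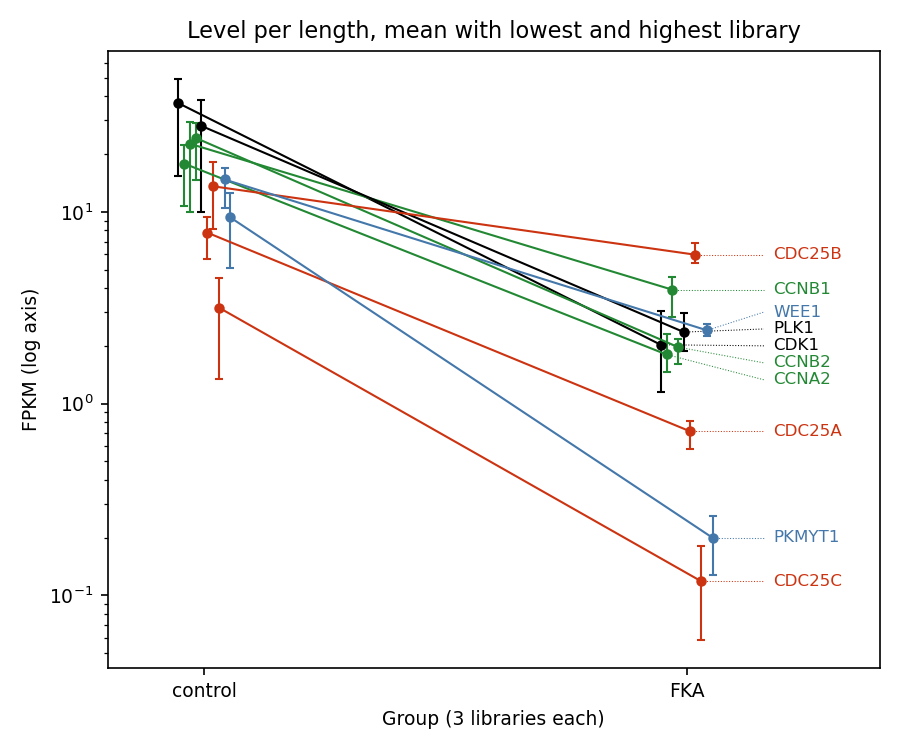
FPKM (log axis) of each gene in controls and with FKA, as the mean of 3 libraries with bars to the lowest and highest library; cyclins are green, CDC25 genes red, inhibitory kinases blue, CDK1 and PLK1 black. The line of CDC25B is the flattest (13.6 to 5.97 FPKM) and that of PKMYT1 the steepest (9.34 to 0.199 FPKM).

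Control replicate 1 was the lowest control in all 10 genes, as in 39.3% of all tested genes. Its level was between 28.0% (PLK1) and 66.8% (CDC25A) of the mean of the other controls, with a median of 49.0% over the 10 genes and 99.9% over all tested genes. What sets that library apart was not tested. Without control replicate 1 all 10 genes were called lower, with log2 fold changes between -5.98 (PKMYT1) and -1.59 (CDC25B).

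Some reads cannot be assigned with certainty, because no source used here says whether the counting used strand. In GENCODE V29, exons of PKMYT1 share 1233 bases with PAQR4 on the opposite strand, which itself fell (34.4 to 6.02 CPM, log2 fold change -2.51, edgeR adjusted p = 1.74e-05). PKMYT1 also shares 360 exon bases with KREMEN2, which was not tested. CCNA2 shares 254 exon bases with EXOSC9 (log2 fold change -1.21) and CDC25C 293 bases with FAM53C, which averaged 59.2 CPM without FKA and 62.5 CPM after it. PLK1 shares 553 exon bases with AC008870.3 and 42 with ERN2, both on the opposite strand. WEE1 shares 104 with RF01210 on the same strand. These last partners are not among the deposited genes. How far such reads enter the values of the 10 genes was not tested.

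The genes with the profile closest to CDK1 were mitotic genes. Likeness was the root mean square difference of log2 CPM, centred on the control mean, over the 6 libraries and 11393 candidate genes. NCAPG, a condensin subunit, was nearest to CDK1 (0.13), followed by the spindle protein ASPM (0.16) and the kinesin KIFC1 (0.16). For WEE1 the nearest were the centromere protein CENPN (0.08), the transcription factor NPAS1 (0.13) and ATAD5, which unloads the replication clamp (0.14).

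Of 81 listed partners, regulators and targets of the switch, 75 were tested, and 47 were lower and 10 higher, where 30.5% and 29.3% of all tested genes were. Their median log2 fold change was -0.52. Among 9 activators and subunits, 7 fell, 1 rose and CCNH was not called (-0.02), with a median of -1.05. CKS1B, a small CDK-binding subunit, fell by 2.96 on the log2 scale, AURKA, which activates PLK1, fell by 2.48, and the subunit CKS2 fell by 1.20. AURKA was at 27.6, 59.7 and 60.6 CPM in the controls and at 9.72, 8.06 and 8.72 CPM with FKA. MNAT1, a subunit of the kinase that activates CDKs, rose by 0.72 (13.0 to 21.5 CPM). CDK7, the catalytic subunit of that kinase, was called lower at -0.48 (34.5 to 24.8 CPM, edgeR adjusted p = 0.0106).

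Relatives of the 10 genes did not all follow. Of 6 tested, 4 fell, PLK5 rose and PLK3 was not called (-0.63), where 30.5% of all tested genes were lower and 29.3% higher. PLK4, which drives centriole duplication, fell by 4.14, and cyclin A1 (CCNA1), found in germ cells and some leukemias, fell by 3.36. CCNA1 averaged 26.1 ± 4.82 CPM in the controls and was at 1.27, 1.69 and 4.60 CPM with FKA, highest in FKA replicate 3, and without that library its log2 fold change was -4.14. PLK5 rose from very low levels, with 3, 6 and 6 counts in the controls and 30, 30 and 33 with FKA (log2 fold change 2.63, edgeR adjusted p = 0.00047, and 0.40 on the log2(FPKM + 1) scale). CCNB3 had 1 to 3 counts per library and was not tested.

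Upstream, of 11 tested checkpoint kinases and 14-3-3 proteins (which hold phosphorylated CDC25 inactive), 7 fell, 2 rose, and MAPKAPK2 (-0.20) and YWHAE (-0.14) were not called. The median was -0.39, and over all tested genes 30.5% were called lower and 29.3% higher. CHEK1, the kinase that restrains CDC25 in S and G2 phase, was at 38.9, 71.1 and 69.1 CPM in the controls and at 3.70, 5.25 and 4.66 CPM with FKA, and its level fell by 3.72 on the log2 scale. The 14-3-3 gene YWHAH fell by 1.22 and the kinase CHEK2 fell by 0.74. The DNA damage kinase ATM rose by 0.38 (SE 0.0953), and with FKA replicate 1 as the lone FKA library the estimate was 0.29 (SE 0.154, edgeR adjusted p = 0.183). YWHAB was called at 0.24 (edgeR adjusted p = 0.0475) but missed the threshold in 9 of 16 alternative fits, with an adjusted p of up to 0.323.

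Phosphatases that oppose CDK1 made up most of the next list. Of 14 tested genes of the Greatwall and phosphatase list, 6 fell, 2 rose and 6 were not called, with a median of -0.19. Over all tested genes 30.5% were called lower and 29.3% higher. With library totals as the only scaling 2 genes of the list fell and 4 rose. Without control replicate 3 there were 3 lower and 1 higher. MASTL, the Greatwall kinase that blocks PP2A in mitosis, fell by 1.72 (49.0 to 14.9 CPM). The PP2A catalytic genes went opposite ways, PPP2CA at -0.52 and PPP2CB at 0.29, the latter lost in 3 of 16 alternative fits. CDC14B was called at -0.50 (edgeR adjusted p = 0.038) but was lost in 8 of 16. ENSA, a PP2A inhibitor when phosphorylated by Greatwall, rose by 0.42.

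Of 8 parts or regulators of the ubiquitin ligases that degrade these proteins, 4 fell, BTRC rose, and FZR1 (0.18), FBXW11 (0.22) and CDC27 (-0.04) were not called. For this list and the next, the shares over all tested genes were 30.5% lower and 29.3% higher. UBE2C, the ubiquitin-conjugating enzyme of the anaphase-promoting complex, fell by 5.27 (-5.85 without FKA replicate 2), its activator CDC20 fell by 3.59 and its inhibitor FBXO5 fell by 2.11. BTRC, an F-box protein that marks WEE1 and CDC25A for breakdown, rose from 20.7 to 35.8 CPM (log2 fold change 0.79). Of 5 tested inhibitors of CDK1 complexes, 3 fell and none rose. CDKN3, a phosphatase that acts on CDKs, fell by 4.41, GADD45A fell by 2.21 and GADD45B fell by 0.77. GADD45A was at 4.41, 4.94 and 13.0 CPM with FKA, highest in FKA replicate 3, and without that library its log2 fold change was -2.89. CDKN1A, which encodes p21, and CDKN1B, which encodes p27, were not called (0.03 and 0.09).

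Of 13 transcription factors of G2 and mitosis genes, 9 fell, 2 rose, and RBBP4 (-0.29) and NFYA (-0.05) were not called. Over all tested genes 30.5% were called lower and 29.3% higher. The NF-Y subunits other than NFYA, NFYB (-0.55, edgeR adjusted p = 0.00188) and NFYC (-0.57, edgeR adjusted p = 0.00948), were called lower. MYBL2, which joins MuvB to activate these genes, was at 84.6, 101 and 129 CPM in the controls and at 0.652, 1.34 and 0.374 CPM with FKA (log2 fold change -7.06, and -7.67 without FKA replicate 2). FOXM1, which activates them with MYBL2, fell by 5.94 and the MuvB subunit LIN9 fell by 1.94. RBL2 (p130), the pocket protein that turns MuvB into a repressor in resting cells, rose by 0.81 and was at 190, 195 and 191 CPM in the controls and 337, 349 and 326 CPM with FKA. LIN37, a MuvB subunit, rose by 0.84. The MuvB subunits LIN54 (-1.10) and LIN52 (-0.56, edgeR adjusted p = 0.0479) were called lower, so the parts of this complex went both ways.

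Of 9 genes for transport and CDK1 substrates, 7 fell, 1 rose and LMNA was not called (0.11), with a median of -1.72. Again 30.5% of all tested genes were called lower and 29.3% higher. The condensin subunit NCAPH fell by 4.28, topoisomerase TOP2A fell by 4.10 and the microtubule regulator STMN1 fell by 2.29. XPO1, the exporter that keeps cyclin B1 in the cytoplasm before mitosis, rose by 0.57 (376 to 558 CPM). The 8 lists were chosen with earlier results of these data known, so their counts are descriptions.

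**Figure D5:**
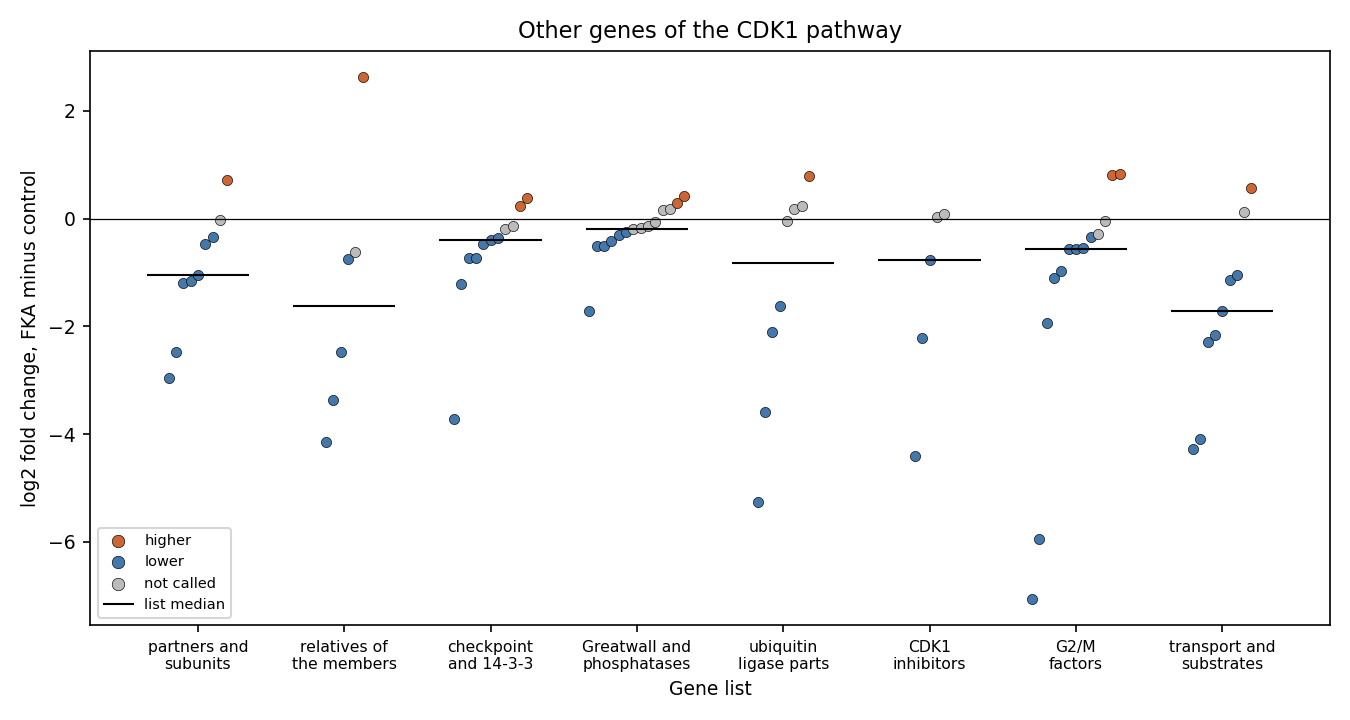
The log2 fold change (y axis, FKA minus control) of the 75 tested partner genes in 8 lists, coloured by edgeR's call, with bars at list medians. The medians lie below 0 in all 8 lists, from -1.72 to -0.19, and the widest spread is among the G2/M factors, from -7.06 (MYBL2) to 0.84 (LIN37).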

How the data were processed

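Total RNA of 6 MV4;11 libraries was sequenced. Aligner, counter, annotation and strand use: not given in the sources used here. Per the submitters' processing notes the builds were GRCm38 and mm10, which are mouse builds, whereas 94.5% of gene symbols occur in RefSeq's human table, so no coordinates of the counted genes are printed. The authors deposited whole-number read counts and FPKM values per gene, which for these genes are the counts divided by column total and 1 length per gene.

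Counts were filtered with filterByExpr, given TMM factors and compared by edgeR's quasi-likelihood test (version 4.0.16) in R 4.3.3, with Benjamini-Hochberg adjustment over 13531 genes and a threshold of 0.05. SEs are the fold change divided by the root of F. Ratios of FPKM were tested by exact permutation. Alternatives were a batch block, DESeq2 1.42.0, other scalings and filters, limma 3.58.1 on log2 FPKM, and leaving out libraries. The batch labels pair replicates across groups (correlation of deviations 0.11, 0.48 and -0.10 in batches 1 to 3). No library repeated another of its group, since chi-square per degree of freedom was 21.7 or more for each pair. On simulated counts of FKA against control in 13169 genes, edgeR recovered 32%, 76%, 95.9% and 100% of genes changed 1.5-, 2-, 4- and 8-fold, and called 10 of 12970 unchanged genes. The simulation changed only 49 or 50 genes at each size, in both directions, whereas 59.8% of genes were called in the data. Its rates therefore need not hold for these data.

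The genes and lists were chosen with earlier results of these data known. From each list the text names up to 3 called genes with the largest change and up to 2 going the other way. It also names the few not called, and CDK7, LIN52, LIN54, NFYB and NFYC. These were chosen after their values were seen, as were PAQR4 and the other overlapping genes, and the markers MPO and ITGAM. The 3 genes nearest to CDK1 and to WEE1 had a mean of at least 50 counts, with 0.1 CPM added before logs.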

Additional observations from a re-analysis of the deposited data

How the results depend on the processing

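All 10 genes stayed lower, past the threshold and at least 2-fold, in each of the 16 alternative fits, so both counts were 10 throughout. The replicate block, with batches as pairs, gave 10 and 10 as well and 8289 calls over all genes; it moved no count by over 1.5 times, and the 4 ratios kept their mean differences (-1.36, 1.13, 32.7 and -30.1) with an exact paired p of 0.25, the smallest that 3 pairs allow. On log2(FPKM + 1), CDC25C stood at -1.81, PKMYT1 at -3.03 and CDC25A at -2.33, since added constants shrink low genes. Leaving out 1 library gave 7090 to 8193 calls over all genes, and leaving out FKA replicates 2 and 3 gave 4619, with 3 controls against 1 library whose spread is taken from the controls. Counts of partner genes moved more. With FKA replicates 2 and 3 left out, 0 checkpoint, 0 Greatwall and 0 transport genes were higher, and 2 Greatwall and 5 transcription factor genes lower. In the checkpoint list 1 gene was higher with DESeq2, RLE factors or no filter, and 1 to 2 with 1 library left out. In the Greatwall list 4 were higher and 2 lower with library totals and with limma at either pseudocount (1 or 0.1), 1 was higher with no filter, and leaving out 1 library gave 1 to 2 higher and 3 to 5 lower. In the ligase list 2 were higher with upper-quartile factors, library totals and both limma fits. With 1 CPM required, 0 relatives were higher (PLK5 was not tested), and 1 to 2 transport genes were higher with 1 library left out. With FKA replicate 1 as the lone FKA library, several named genes kept their direction at wider SEs and missed the threshold. They were ATM at 0.29, PPP2CA at -0.46, ENSA at 0.43, XPO1 at 0.45, PPP2CB at 0.29 and YWHAB at 0.22. The cause of these shifts was not tested. The ratio differences kept their sign in all alternatives. Depth limits CDC25C and PKMYT1, with 5 to 22 counts per FKA library.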
